A study of Mus musculus with 2 samples.

Results

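The pairs described here, called the set below, joined the VH gene sections on the D side of Igh, the heavy chain locus of the mouse, to the distal VH section at its other end. A pair entered when 1 fragment had its midpoint in mm9 chr12:114735001-115820000, the other had its midpoint in mm9 chr12:115820001-117350186, and the midpoints lay 10 kb or more apart. Position alone chose the pairs, and no measured value entered the rule. It gave 2617 of the 10584 forward-reverse pairs of the Igh tables, of which 895 had their lower fragment in the proximal section (chr12:114735001-115290000) and 1722 in the intermediate section (chr12:115290001-115820000). A further 2 pairs of these sections lay closer than 10 kb and were left out. The pairs used 145 of the 206 probed fragments, namely 25 proximal, 48 intermediate and 72 distal ones.

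Chromatin contacts were measured by 5C, in which crosslinked chromatin is cut with HindIII and ligated, and a forward primer on 1 fragment end and a reverse primer on another yield a product that is counted by sequencing. Both libraries came from CD43- splenic B cells of C57Bl/6 mice, kept ex vivo for 40 hours with LPS and IL4 (10 ng/ml), 2 stimuli that drive B cell activation and class switching. The 2 libraries are biological replicates of 1 group in the series description, so the data hold no untreated or resting cells and no contrast between conditions. A 5C count carries no expression value, and the labelled cell type was not checked against markers.

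The heavy chain gene of a B cell is assembled from a V, a D and a J segment, and the VH segments are spread over most of the locus while the D and J segments sit together near the constant genes. In precursor B cells the locus is known to contract, which brings distant VH segments near the D and J segments before they recombine. Mature splenic B cells have already made that choice, and contacts between VH sections in them are a readout of how the V region is folded after recombination. A B cell population holds many different rearranged alleles, and a rearrangement deletes the DNA between the chosen V segment and the D segment. The contacts were therefore a mean over alleles that do and do not carry the proximal and intermediate sections, and fewer alleles with a section and fewer contacts per allele cannot be told apart in these counts.

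The section names follow position. In a gene table on the assembly GRCm38.p6, used only for names and their order, 183 Ighv entries lie along the locus. Of the 45 next to the D segments, 20 belong to the Ighv5 family and 11 to Ighv2, while of the 45 farthest away, 35 belong to Ighv1 and 10 to Ighv8. No mm9 annotation was used here, so no fragment was assigned to a gene and fragments are named by primer direction and number. Probing was uneven. Fragments covered 19.9% of the proximal, 30.3% of the intermediate and 16.7% of the distal section, and the longest stretch with no probed fragment was 56.5 kb, 53.1 kb and 165 kb in that order. At the borders, reverse 249 (chr12:115259493-115262224) was the last proximal and reverse 260 (chr12:115327864-115330485) the first intermediate fragment. Forward 415 (chr12:115816276-115822016) crosses into the distal section but has its midpoint just inside the intermediate one, and reverse 418 (chr12:115823136-115824506) was the first distal fragment.

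The libraries held 14503618 counts in replicate 1 and 17658603 in replicate 2. Pairs of the proximal and intermediate sections with the distal section took 137096 of these in replicate 1 and 252345 in replicate 2, or 0.945% and 1.43% of each library. All Igh pairs 10 kb or more apart took 21.3% and 31.5%, so a larger share in replicate 2 was not particular to the set. Replicate 2 had more counts in these pairs, which lowers the relative counting error only. The median proximal with distal pair had 12 counts in replicate 1, with an exact 95% Poisson interval from 6.20 to 21.0, and 33 in replicate 2, with one from 22.7 to 46.3. The median intermediate with distal pair had 22 counts (13.8 to 33.3) and 52 counts (38.8 to 68.2). These intervals cover counting error only, since amplified products carry no molecular identifier. A count of 0 was found in 91 proximal pairs of replicate 1 and 6 of replicate 2, and in 78 and 4 intermediate pairs. Both replicates counted at least 1 product in 89.5% of proximal and 95.2% of intermediate pairs, against 96.5% of all pairs 10 kb or more apart.

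Counts change with distance, so each count was set against the count expected at its distance. That was read from a smooth curve through all 10415 Igh pairs 10 kb or more apart in that replicate. From 954 to 2315 kb the expected count went up, from 58.8 to 78.3 in replicate 1 and from 83.6 to 92.7 in replicate 2. At 1750 to 2000 kb, 319 of the 574 Igh pairs joined fragments below the proximal section to distal ones. At 2250 to 2500 kb, 277 of 396 did. Ratios at such distances are thus in part relative to those pairs. The log2 ratio used below is log2 of (count + 1) over (expected + 1). A curve through counts follows the mean, which a few very high pairs pull up, so the typical pair of the whole map also lies below 0, at a median log2 ratio of -1.46 in replicate 1 and -1.29 in replicate 2. Primers differ in efficiency, and a second, primer-corrected ratio divided each ratio by the mean levels of its forward and its reverse primer. That correction sets the mean of every primer to 1, so it also takes out any real tendency of a fragment to make many or few contacts.

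The proximal and the intermediate section both had low count ratios with the distal section. The median log2 ratio of proximal with distal pairs was -2.33 in replicate 1 and -1.47 in replicate 2 (mean -1.90 ± 0.61, SD, n = 2). For intermediate with distal pairs it was -1.96 and -1.48 (mean -1.72 ± 0.34, SD, n = 2). Both sections lay below the median of all pairs in each replicate. Stated as a plain ratio of observed to expected counts, the medians were 0.187 and 0.354 for the proximal and 0.246 and 0.353 for the intermediate section, against 0.357 and 0.404 for all pairs. Pairs at or above their expected count in both replicates made up 11.2% of the proximal and 11.4% of the intermediate pairs, and 15.7% of all pairs. With the primer correction the proximal median was -0.83 and -0.27 and the intermediate median -0.47 and -0.47, next to -0.46 and -0.39 for all pairs. After correction the proximal section was thus below the map median in replicate 1 and above it in replicate 2, and the intermediate section was within 0.1 of it in both. With 2 replicates an exact sign permutation test cannot give a p below 0.5, so differences are given with their spread and no test.

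The proximal and the intermediate section could not be told apart at matched distance. Over 6 distance bins of 250 kb from 500 to 2000 kb, intermediate pairs were higher than proximal pairs by 0.60 in replicate 1 and 0.10 in replicate 2 on the log2 scale (mean 0.35 ± 0.35, SD, n = 2). The intermediate median was the higher one in 5 of 6 bins in replicate 1 and in 2 of 6 in replicate 2. At 750 to 1000 kb the intermediate section was higher in both replicates, with -0.94 and -0.47 against -2.20 and -1.10 for the proximal section. At 1000 to 1250 kb it was higher in both as well, by 0.35 and 0.71. At 1250 to 1500 kb the proximal section was higher in both, with -2.20 and -1.06 against -2.51 and -1.31. With the primer correction the mean difference was 0.31 in replicate 1 and -0.14 in replicate 2, so the replicates pointed opposite ways. Of those 3 bins, only the one at 1000 to 1250 kb kept the same sign in both replicates after correction, at 0.26 and 0.069. Among pairs with their forward primer in the VH section the difference was 0.96 and 0.25, and among those with the reverse primer there it was 0.22 and -0.20. In a matched bin the proximal and intermediate sections need not have the same distal partners. The 255 kb of the distal section next to the border, for example, lay at a median of 907 kb from proximal and 267 kb from intermediate partners. The part of unlike partners in these differences was not tested.

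**Figure D1:**
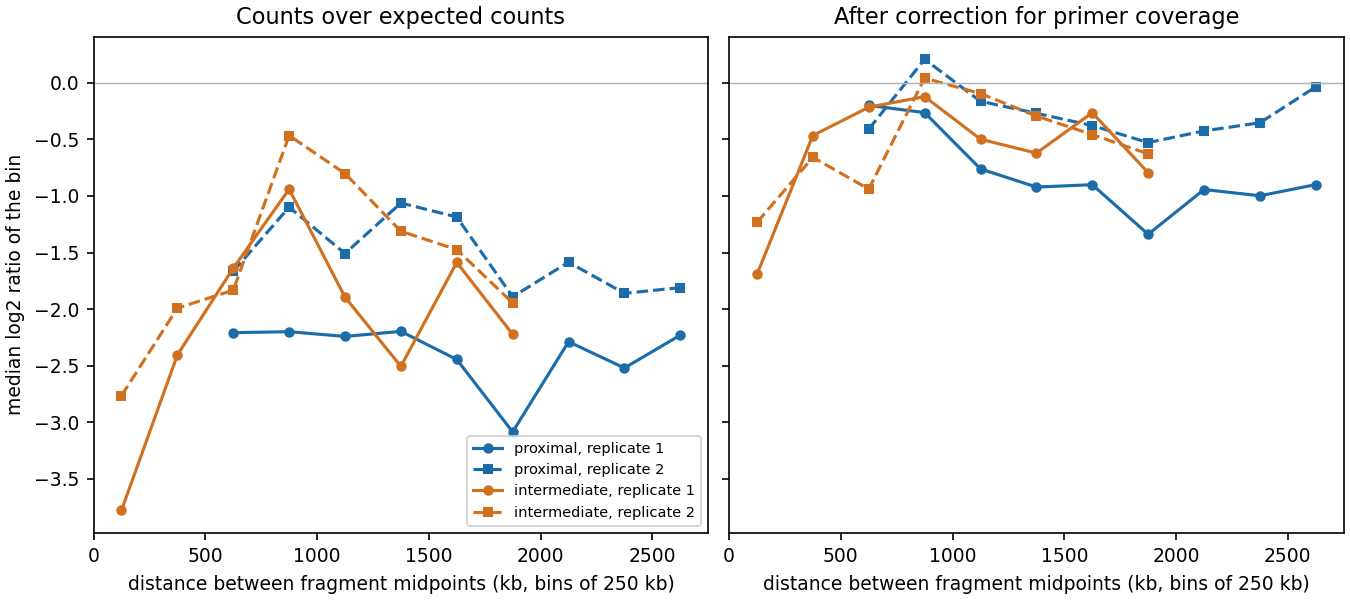
Median log2 ratio of observed to expected counts (y axis) by distance between fragment midpoints (x axis, kb, bins of 250 kb) for proximal and intermediate VH pairs with distal VH, 1 line per replicate, without and with primer correction. The intermediate section starts at -3.78 and -2.76 in the nearest bin and is highest at 750 to 1000 kb, and the proximal and intermediate lines of replicate 2 cross.

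The nearest pairs across the intermediate-distal border were the lowest. Below 250 kb the 126 intermediate with distal pairs had a median count of 57.5 in replicate 1 and 207 in replicate 2, and a median log2 ratio of -3.78 and -2.76. All Igh pairs in that distance range had -2.33 and -2.12. The intermediate level rose with distance to -0.94 and -0.47 at 750 to 1000 kb, where all pairs had -1.16 and -0.85, and lay lower again at 1750 to 2000 kb, at -2.22 and -1.95. Proximal pairs changed less along the distance axis, between -2.20 and -3.09 in replicate 1 and between -1.06 and -1.89 in replicate 2. With the primer correction the nearest bin stayed low, at -1.69 and -1.23, where all pairs had -1.46 and -1.18.

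Set against pairs within the distal section, which share the distal fragments, the pairs that crossed into it were lower in counts by 0.49 in replicate 1 and 0.31 in replicate 2 (log2, mean over 6 matched bins). They were the lower ones in 4 of 6 bins in replicate 1 and 5 of 6 in replicate 2. At 1250 to 1500 kb they were higher in both, by 0.35 and 0.50. The difference was largest at short distance. Below 250 kb the difference was -1.42 and -1.01, and with the primer correction it was -0.09 and 0.07. Over all 6 bins the corrected difference was -0.18 in replicate 1 and 0.12 in replicate 2. The low values at the border were thus seen in counts and not in primer-corrected ratios, relative to pairs within the distal section.

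Fragments below the proximal section, on the side of the D, J and constant genes, had higher count ratios with distal fragments than the VH sections did. At matched distance the VH pairs were lower by 1.23 in replicate 1 and 0.76 in replicate 2 (log2), a mean of -0.99 ± 0.33 (SD, n = 2). The VH pairs were the lower ones in 7 of 7 bins between 1000 and 2750 kb in both replicates. At 1750 to 2000 kb, for example, the VH pairs had -2.62 and -1.93, and the pairs from below had -0.72 and -0.81. With the primer correction the difference was -0.49 and -0.15, and the VH pairs were lower in 7 of 7 bins in replicate 1 and 4 of 7 in replicate 2. In replicate 2 the corrected difference was -0.61 at 1000 to 1250 kb and 0.24 at 2500 to 2750 kb. Distances were those of mm9, and the matched bins need not hold the same distal fragments for both kinds of pair. A rearrangement deletes DNA between the chosen V segment and the D segment, which shortens the distance across it on that allele. Its part in the difference was not tested.

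Few of the long-range pairs stood out singly. A pair was called when its count exceeded the expected count with a q (Weibull upper tail, Benjamini-Hochberg over all 10415 pairs) under 0.01 in both replicates, which 0.24% of all pairs did. Only 2 of the 2617 pairs were called, or 0.0764%, 1 from each VH section, which is below the share over the whole map. In replicate 1 alone 3 of the pairs passed, where 0.432% of all pairs did, and in replicate 2 alone 6 passed, where 0.374% did. After the primer correction 7 pairs were called, 3 proximal and 4 intermediate, or 0.267% against 0.307% of all pairs.

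The strongest pair of the set joined 2 fragments 2315 kb apart, forward 165 in the proximal section (chr12:114973711-114977500) and reverse 819 near the far end of the distal section (chr12:117289594-117292548). It was counted 9550 times in replicate 1 and 18894 times in replicate 2, with Poisson intervals from 9359 to 9743 and from 18626 to 19165. Its ratio of observed to expected counts was 122 and 204 (mean 163 ± 57.9, SD, n = 2), and 59.8 and 62.4 after the primer correction. It was called with and without that correction. The fragments around it did not share its height. Among 24 neighbouring pairs, made of the nearest fragments on each side, the highest ratio was 1.62 in replicate 1 and 0.70 in replicate 2. The next highest distal partner of forward 165 reached 2.75 and 1.95, and the next highest VH partner of reverse 819 reached 3.20 and 2.49. The pair held 93.7% and 92.6% of the counts of forward 165 within the set, and 85.8% and 91.1% of those of reverse 819. It also held 23.9% and 26.6% of all proximal with distal counts. Without it the mean ratio of the proximal section fell from 0.643 to 0.507 in replicate 1 and from 0.861 to 0.634 in replicate 2. Primer sequences were not used here, and a match of these 2 primers to each other was not tested.

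The other called pair joined reverse 374 in the intermediate section (chr12:115706727-115709849) to forward 792 in the distal section (chr12:117189453-117190694), 1482 kb apart. It had 1050 and 1817 counts, and ratios of 17.0 and 20.6 (mean 18.8 ± 2.53, SD, n = 2). Its q (Weibull, Benjamini-Hochberg) was 0.00909 and 0.00246, close to the threshold in replicate 1. Both fragments had many counts with other partners too, and the corrected ratio was 3.94 and 3.60, which was not called. The call was also lost at a q threshold of 0.001 and when pairs without at least 10 counts in a replicate were left out of the fit. Forward 792 formed the next strongest of its contacts with reverse 401 (chr12:115780319-115786560), 1407 kb away. That pair had 518 and 1429 counts, ratios of 8.48 and 16.6, and corrected ratios of 7.10 and 9.21, and it was called after correction. On counts it missed the threshold in replicate 1, and it was called with a lowess span of 0.1. Reverse 374 and reverse 401 both lie on the distal side of the middle of the intermediate section.

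**Figure D2:**
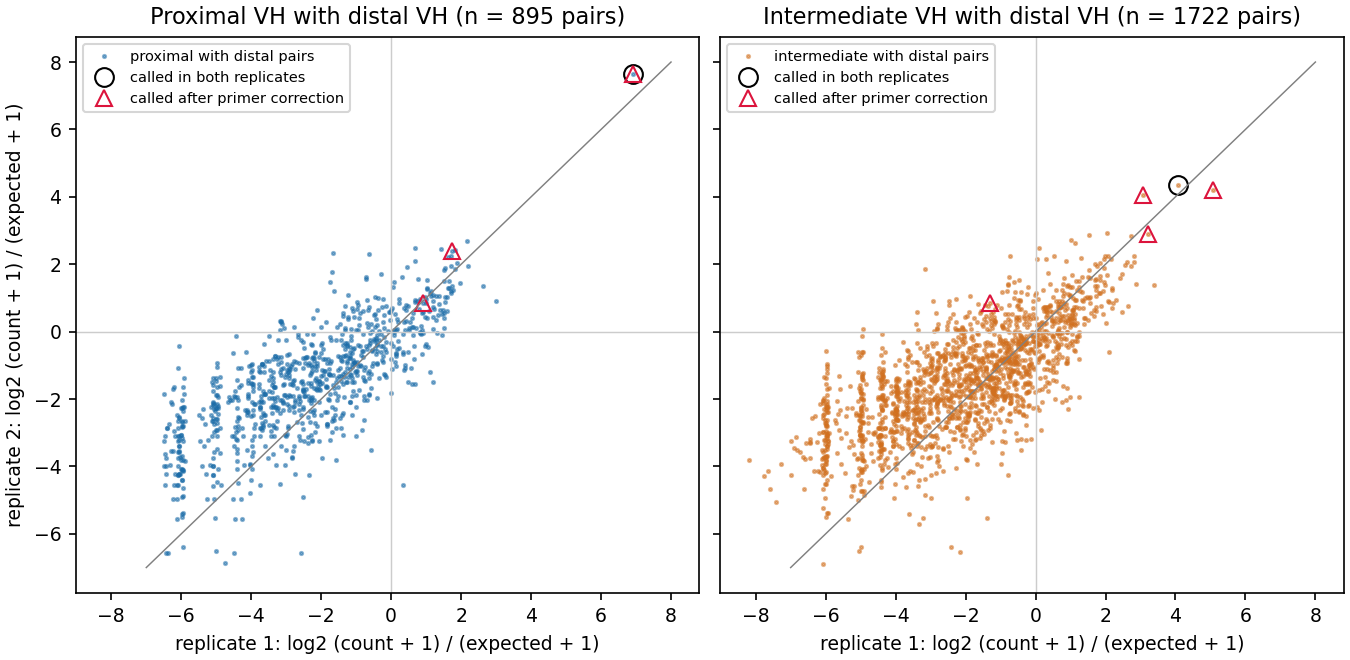
Log2 ratio of observed to expected counts in replicate 1 (x axis) and replicate 2 (y axis), 1 point per pair, for the 895 proximal and the 1722 intermediate pairs with distal VH. Circles mark the 2 pairs called on counts and triangles those called after primer correction, and the proximal circle, at ratios of 122 and 204, stands apart from all other proximal pairs.

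Of the remaining intermediate pairs, reverse 403 (chr12:115788404-115792870) with forward 513 (chr12:116215116-116216127), 425 kb apart, had the highest ratios, 33.8 in replicate 1 and 18.3 in replicate 2, from 4195 and 6265 counts. It passed in replicate 1 but had a q (Weibull, Benjamini-Hochberg) of 0.678 in replicate 2. The outcome in replicate 2 turned on 1 pair of like distance within the distal section, forward 556 with reverse 705, which had 6216 counts in replicate 1 and 156364 in replicate 2. When that pair was left out of the fit, reverse 403 with forward 513 was called. Its corrected ratios were 29.4 and 23.4, which were called. It held 62.8% and 56.0% of the set counts of reverse 403 and 74.0% and 74.1% of those of forward 513.

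Forward 369 (chr12:115696906-115699931) with reverse 668 (chr12:116760227-116762407) had 577 and 629 counts and ratios of 9.36 and 7.59. Its corrected ratios of 11.4 and 9.68 were called, and each fragment ranked the other first among its partners in both replicates. Reverse 374 with forward 611 had ratios of 6.72 and 7.24, but corrected ones of 1.49 and 1.38, so the levels of the 2 primers covered most of that height. The other 4 of the 5 highest proximal pairs were much lower than forward 165 with reverse 819, with ratios between 3.61 and 6.50 in the 2 replicates. They were forward 233 with reverse 499 and with reverse 831, forward 115 with reverse 435, and reverse 235 with forward 661. Their corrected ratios lay between 1.14 and 2.69, and none was called.

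The other 3 pairs called only after correction had between 25 and 501 counts. Reverse 129 with forward 661, 1901 kb apart, had 224 and 501 counts, with uncorrected ratios of 3.36 and 5.33 and corrected ones of 13.2 and 15.3. It held 51.9% and 47.9% of the set counts of reverse 129. Reverse 249, the last proximal fragment, with forward 712 had 120 and 163 counts. Its uncorrected ratios were only 1.89 and 1.80, and its corrected ones 11.6 and 11.3. Reverse 368 with forward 694 had only 25 and 151 counts, with uncorrected ratios of 0.40 and 1.80 and corrected ones of 8.79 and 9.12. Both of its fragments were low elsewhere, with a median ratio to their other partners in the set of 0.091 and 0.184 for reverse 368 and 0.033 and 0.256 for forward 694.

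Ratios differed between the sides of the proximal section. With each VH section divided at its middle, the proximal side nearest the D segments had -2.75 and -1.82, and the side nearest the intermediate section had -1.85 and -1.08. With the primer correction the same order held, with -0.98 and -0.46 against -0.59 and -0.10. Their median distances to distal partners were 1808 and 1532 kb, and the expected count did not level all Igh pairs over this range. Those had -1.28 and -1.19 at 1500 to 1750 kb and -1.54 and -1.27 at 1750 to 2000 kb. With the primer correction they had -0.37 and -0.36, then -0.78 and -0.50. The sides of a section were not compared at matched distance. The intermediate section had -2.28 and -1.53 on the D side and -1.80 and -1.46 on the distal side. Its corrected values were -0.49 and -0.26 against -0.46 and -0.58, so there the order turned in replicate 2.

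Along the distal section, cut into 6 windows of 255 kb numbered from the intermediate border, window 5 (chr12:116840125-117095155) was low for both VH sections. The proximal section had -3.76 and -2.10 with it, and the intermediate section had -3.18 and -1.60. In replicate 2 the latter was close to windows 2 and 6, at -1.56 each. Window 4 (chr12:116585094-116840124), just before it, was the highest for the intermediate section, at -1.04 and -0.58. For the proximal section window 4 had -1.74 and -1.09, close to window 2 at -1.75 and -1.01. With the primer correction the intermediate section had -0.24 and 0.12 with window 4 and -0.81 and -0.39 with window 5. Window 5 was not the lowest for the intermediate section, either on counts or after correction. Window 1 was lower in both replicates, at -3.31 and -2.42 on counts and -0.98 and -0.78 after correction. In replicate 2 only window 4 was above window 5 after correction. For the proximal section the corrected values were -0.81 and -0.23 with window 4 and -1.61 and -0.56 with window 5, and window 3 was as low in replicate 2 at -0.565. Window 5 held 9 probed fragments and so did window 4, so these steps rest on few fragments each.

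**Figure D3:**
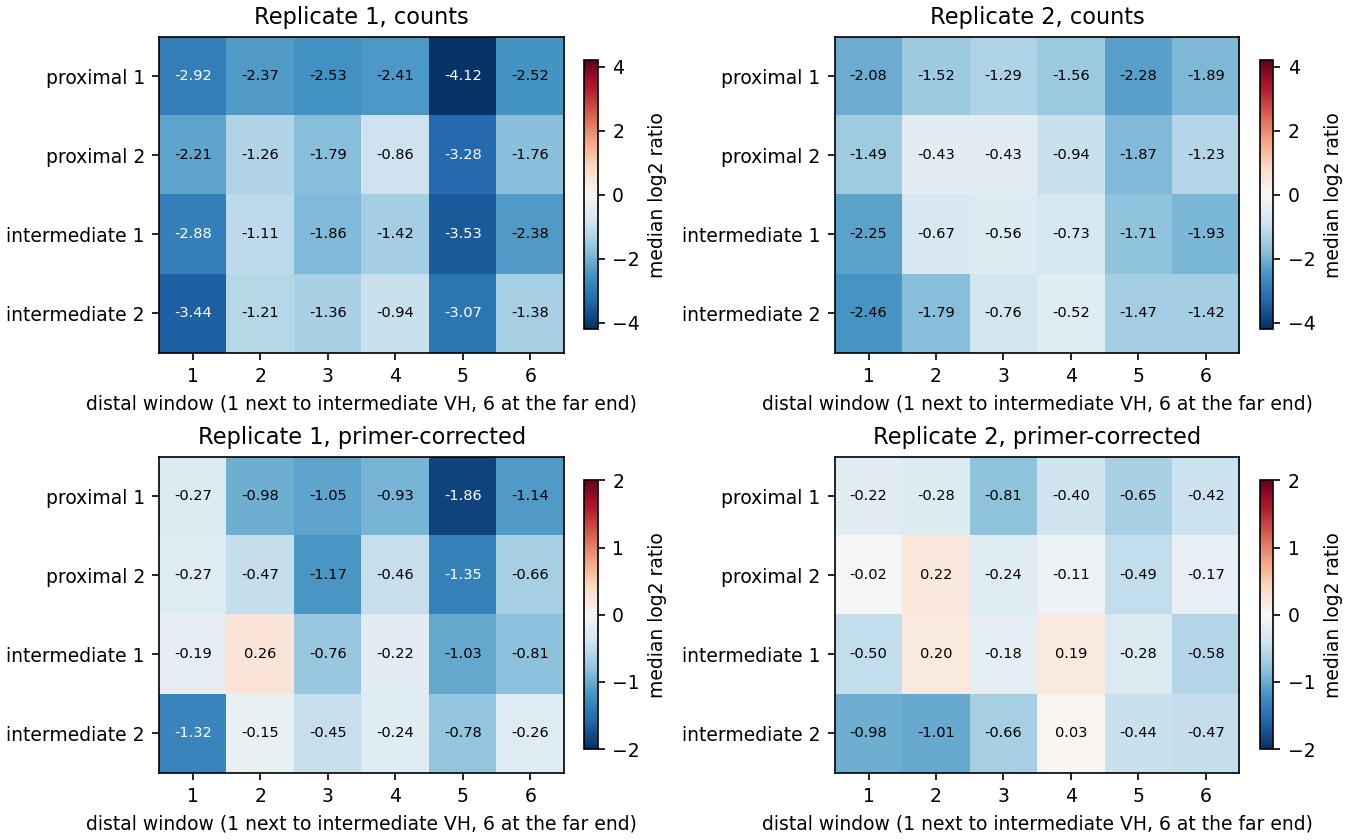
Median log2 ratio (colour) of pairs between 4 windows of the proximal and intermediate sections (y axis) and 6 windows of the distal section (x axis, 1 next to intermediate VH), for each replicate, without and with primer correction. Without the correction, window 5 lies between -4.12 and -3.07 across the 4 VH windows in replicate 1, and window 1 with the nearest intermediate window is low at -3.44 and -2.46.

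With the distal section divided at its middle, the far side minus the near side at matched distance gave 0.44 in replicate 1 and -0.03 in replicate 2, so no direction was shared. After correction it was 0.32 and 0.10, higher on the far side in both. For the proximal section alone the far side was higher in both replicates, by 1.29 and 0.48, and by 0.28 and 0.47 with the primer correction. For the intermediate section alone it was 0.19 and -0.49, and 0.090 and 0.095 with the primer correction. At matched distance the far and near sides need not have the same VH partners. The proximal side nearest the intermediate section lay at a median of 1562 kb from window 4, on the far side. The proximal side nearest the D segments lay at 1583 kb from window 3, on the near side. The part of such unlike partners in these differences was not tested.

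Each distal fragment was also compared with itself, by its median log2 ratio with intermediate partners and with proximal partners, so that its own primer entered both sides. Of the 72 distal fragments, 31 were higher with the intermediate section in both replicates, 17 were higher with the proximal section in both, and 24 had opposite signs in the replicates. After primer correction the numbers were 21, 18 and 33. On counts the direction differed between windows of the distal section. In window 1, next to the intermediate border, 11 of 12 fragments were higher with the proximal section, and in window 4, 8 of 9 were higher with the intermediate section. In windows 2 and 6, 9 of 11 and 9 of 21 had opposite signs in the replicates. These windows were chosen after the values were seen.

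The order in window 1 depended on the curve. Its fragments lay at a median of 267 kb from intermediate and 907 kb from proximal partners, and when the expected count was fitted to log2 counts instead of counts, only 1 of the 12 was higher with the proximal section in both replicates, reverse 435. Then 5 of the 12 were higher with the intermediate section in both, and 6 were mixed. Over all 72 fragments the log2 curve gave 41 higher with the intermediate section, 7 with the proximal section and 24 mixed. Window 4 lay at a median of 1113 kb from intermediate and 1744 kb from proximal partners. In window 4, 7 of 9 fragments were higher with the intermediate section in both replicates under counts, primer correction and the log2 curve alike. All Igh pairs went the same way over these distances, from -1.04 and -0.64 at 1000 to 1250 kb to -1.28 and -1.19 at 1500 to 1750 kb. With the primer correction they went from -0.12 and 0.15 to -0.37 and -0.36. Distal fragments were not compared with themselves at matched distance, so the order in window 4 is not particular to it. Over all 72 fragments, 19 were higher with the intermediate section under all 3, 6 were higher with the proximal section, and 47 were mixed.

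Forward 792 was higher with the intermediate section. Of the distal fragments it had the highest median log2 ratio, as the mean of the 2 replicates without primer correction. Its median log2 ratio with proximal partners was -0.54 in replicate 1 and -0.27 in replicate 2, and with intermediate partners 0.96 and 1.42. The groups of partners thus lay on either side of 0, and the difference after primer correction was 1.60 and 1.29. Reverse 705 (chr12:116875021-116877871) had a like difference, 1.70 and 1.66, at a much lower level, with -4.77 and -1.99 for proximal and -3.07 and -0.33 for intermediate partners. Reverse 435 (chr12:115877939-115880010) went the other way, with 1.05 and 0.25 for proximal and -0.18 and -1.07 for intermediate partners. Forward 832 (chr12:117307900-117314249), near the far end, was also higher with the proximal section, by 1.35 and 1.09. Forward 792, reverse 705, reverse 435 and forward 832 kept their direction under the primer correction and under the log2 curve.

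**Figure D4:**
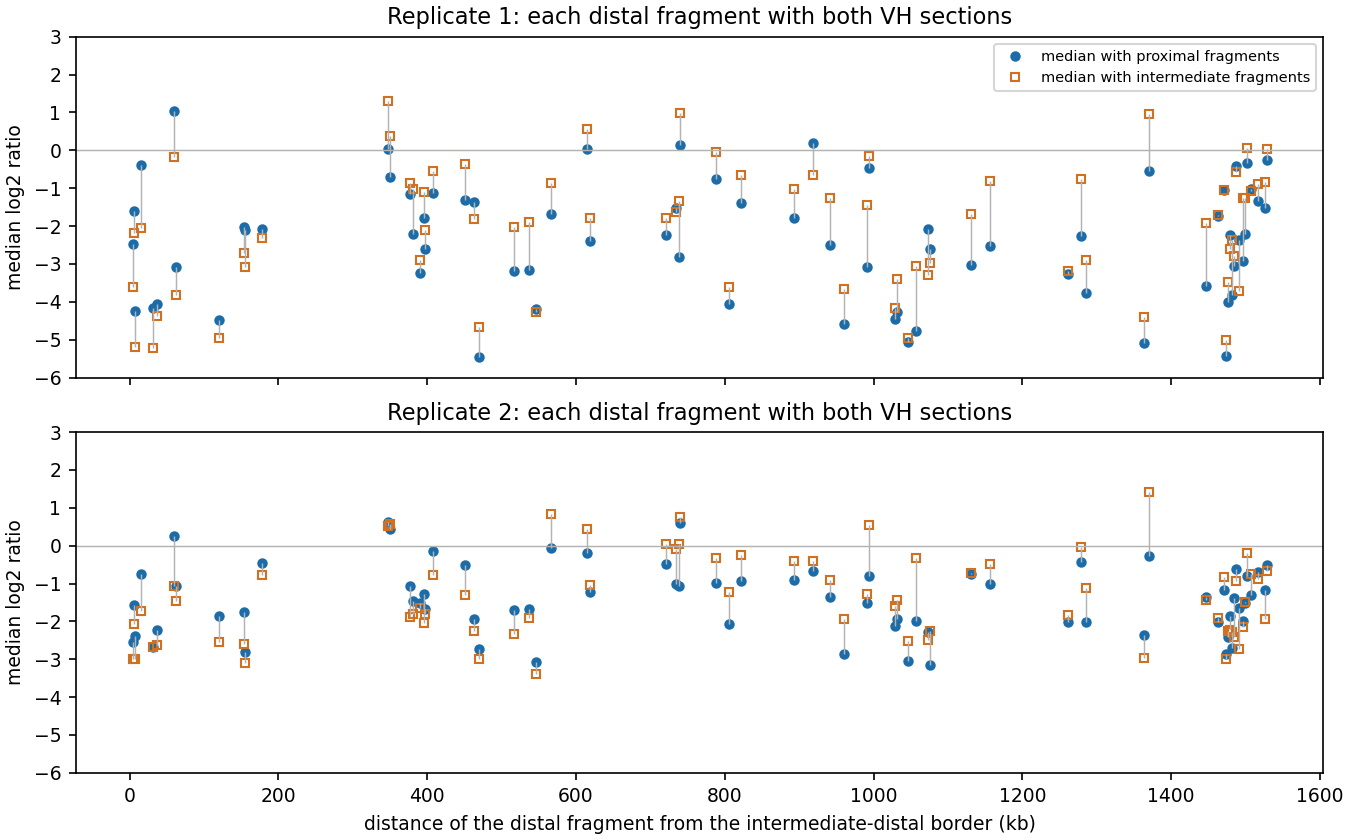
Median log2 ratio (y axis) of each of the 72 distal fragments with proximal partners (filled circles) and with intermediate partners (open squares), by distance of the fragment from the intermediate-distal border (x axis, kb), 1 panel per replicate. Next to the border the circles lie above the squares in both replicates for 11 of 12 fragments, and in the fourth window the squares lie above the circles in 8 of 9. With a curve through log2 counts, 1 of those 12 was higher with proximal partners in both replicates and 5 with intermediate partners.

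Single fragments ranged widely on counts. Among the 72 distal fragments the median log2 ratio to VH partners ran from -5.13 to 1.04 in replicate 1 and from -3.29 to 1.10 in replicate 2, and 4 fragments were above 0 in both. By the mean of the 2 replicates, which orders the fragments named in each section, the highest were forward 792 (0.90 and 1.10), forward 611 (chr12:116559256-116561326, 0.90 and 0.76) and reverse 499 (chr12:116166285-116168748, 1.04 and 0.54). The lowest were forward 820 (chr12:117292549-117295273, -5.02 and -2.98), forward 702 (chr12:116864979-116868374, -4.98 and -2.93) and reverse 528 (chr12:116286772-116293346, -4.95 and -2.87). Forward 820 directly follows reverse 819, which had -1.05 and -0.93 and held the strongest pair. Fragments were ordered on counts, without the primer correction. After correction forward 792 had -0.26 and -0.29, forward 611 had -0.32 and -0.08, and reverse 499 had 0.05 and -0.004. The section median was then -0.53 and -0.40. Of the lowest, forward 820 had -1.75 and -0.68, forward 702 had -2.96 and -2.12, and reverse 528 had -0.62 and -0.46.

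In the intermediate section the highest fragments were reverse 398 (chr12:115774724-115776651, 0.45 and 0.59), reverse 339 (chr12:115616163-115618624, 0.33 and -0.33) and forward 346 (chr12:115628291-115630212, 0.28 and -0.76). The lowest were reverse 345 (chr12:115623606-115628290, -4.97 and -3.09), forward 344 (chr12:115621851-115623605, -3.97 and -3.03) and forward 295 (chr12:115443133-115444953, -4.49 and -2.08). Forward 344, reverse 345 and forward 346 are consecutive on the DNA, and the third lay far above the first and second in both replicates, though its own place among the highest rested on replicate 1. After primer correction forward 346 had -0.10 and -0.52 and reverse 345 had -1.21 and -0.52, so in replicate 2 they no longer differed by more than 0.1. Reverse 398 then had -0.46 and -0.65 and reverse 339 had -0.22 and -0.57, next to a section median of -0.45 and -0.51. Forward 344 had -0.89 and -0.91, and forward 295 had -0.56 and -0.09.

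In the proximal section the highest were reverse 171 (chr12:114996747-115006242, 0.13 and 0.06), reverse 208 (chr12:115148612-115152740, -0.28 and -0.07) and reverse 235 (chr12:115225314-115233376, -0.49 and 0.03). The lowest were forward 117 (chr12:114791568-114794187, -5.95 and -4.24), reverse 131 (chr12:114840678-114842494, -4.12 and -2.52) and reverse 129 (chr12:114836439-114838819, -3.99 and -2.51). Forward 117 had a count of 0 in 20 of its 37 pairs in replicate 1 and in 3 in replicate 2, so its level there was not measurable beyond being low. After primer correction reverse 171 had -0.84 and -0.29, next to a section median of -0.79 and -0.22. Reverse 208 then had -0.50 and -0.09, and reverse 235 had -0.48 and -0.15. Forward 117 had -5.95 and -0.79, reverse 131 had -1.06 and -0.71, and reverse 129 had -1.40 and -0.75. Some of the count levels of named fragments were those of the fragment over the whole map. Forward 611, for example, had the same median over all its Igh partners, 0.90 and 0.76, as over its VH partners here. Forward 792 had 0.37 and 0.52 over all its partners, against 0.90 and 1.10 over its VH partners.

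The replicates ranked the pairs alike, with a Spearman rho of 0.73 over the 2617 pairs, 0.77 over the proximal and 0.71 over the intermediate ones. After primer correction rho was 0.45. These correlations run over pairs that share fragments, primers and libraries, and are given as descriptions. Replicate 2 had the higher median in 24 of 25 proximal, 37 of 48 intermediate and 53 of 72 distal fragments. For 2 distal fragments the share of the set counts differed by more than 4-fold, both higher in replicate 2, by 4.14-fold for reverse 528 and 5.34-fold for forward 702. Both were among the lowest fragments, with medians of 1.5 and 21.5 counts for reverse 528 and 1 and 11 counts for forward 702.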

How the data were processed

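The deposited unit is the count of sequenced ligation products for each forward-reverse primer pair, with fragment positions in mm9 per the file headers. Per the submitters' processing notes, Novoalign and mm9 were used, and no version is given in the sources used here. Pairs and lists were chosen with earlier results of these data known.

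Distances ran between fragment midpoints. In each replicate expected counts came from a lowess fit (span 0.3, statsmodels 0.14.6) to counts against log10 distance, and the SD from a second fit to the squared residuals, over pairs 10 kb or more apart. A Weibull fit to the scaled residuals gave p, adjusted by Benjamini-Hochberg over 10415 pairs. The primer correction divided ratios by primer means in 50 rounds. Log2 ratios had a pseudocount of 1. Matched differences are unweighted means over 250 kb bins holding 10 or more pairs of each kind of the difference in medians. Named pairs were those called, plus the 5 per VH section with the highest lower ratio of the 2 replicates. Pairs called only after correction, and the 4 distal fragments whose 2 medians are compared, were named after their values were seen. Named fragments were the 3 highest and 3 lowest per section and those whose share differed over 4-fold. The steps were tested on simulated data. No sequence is shown, since no mm9 genome was used here.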

Additional observations from a re-analysis of the deposited data

How the results depend on the processing

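Of 60 values recomputed on both replicates, 15 moved beyond the replicate spread (for counts of pairs or fragments, beyond 1.5 times; for the rank correlation, by 0.1 or more). The far minus near difference within the distal section, 0.20, turned to -0.016 from mean ratios and ran from -0.034 to 0.44 with either replicate left out. Leaving out 1 of 2 replicates only returns the other replicate's value, so it says nothing of stability for medians and differences. The 2 called pairs became 7 with primer correction, 1 at a q threshold of 0.001, 4 with a lowess span of 0.1, 1 among pairs with 10 or more counts in at least 1 replicate, and 3 to 6 with either replicate left out. Over the whole map these settings called 32, 19, 31, 24 and 39 to 45 pairs, against 25. On log2 counts the same Weibull procedure called 0 pairs in the set and 0 on the whole map, with 20 pairs of the set at an unadjusted p under 0.05 in both replicates (0.764%, against 2.42% of all pairs), and 16 on counts (0.611%, against 1.58%).

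The median log2 ratio of the proximal section, -1.90, became -0.55 with primer correction, -0.65 with a curve through log2 counts and -0.43 as the log2 of the mean ratio. That of the intermediate section, -1.72, became -0.47, -0.35 and -0.63 in the same order. With the log2 curve the median of all pairs was 0.20 in replicate 1 and -0.04 in replicate 2. The difference from pairs within the distal section became -0.029 with primer correction and -0.90 from mean ratios, and that from the fragments below the proximal section became -0.32 with primer correction. The number of distal fragments higher with the intermediate section was 36 to 50 with either replicate left out. The replicate rank correlation became 0.45 with primer correction.

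No paired analysis was possible because both libraries belong to 1 group. Depth limits the proximal pairs of replicate 1 most. The fit without forward 556 with reverse 705, the primer orientations, each VH section alone, the distal windows and the joint use of 3 curves were chosen after seeing the data.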
